A study of Homo sapiens with 8 samples.

Results

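Aminoacyl-tRNA synthetases join each amino acid to its transfer RNA, the step that gives the genetic code its meaning at the ribosome. Human cells keep a cytosolic set and a largely separate mitochondrial set, whose enzymes are encoded in the nucleus and imported. The 36 genes described here are the 20 cytosolic and 16 mitochondrial synthetases found by symbol among the 23710 genes of each count table; the mitochondrial symbols end in 2. All 36 were present in the tables, and all 36 passed the filter on low counts that left 12536 genes for testing.

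Uncharged transfer RNA is the signal sensed by the kinase GCN2, which leads to translation of the transcription factor ATF4, and several cytosolic synthetase genes are textbook ATF4 targets. WARS, the tryptophan enzyme, is separately known as a gene induced by interferon gamma. The 8 cytosolic genes EPRS, IARS, LARS, MARS, QARS, RARS, KARS and DARS encode members of the multisynthetase complex, while the products of the others act outside it. GARS and KARS each encode a cytosolic and a mitochondrial form and were counted as cytosolic.

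RNA was sequenced from a human lymphoblastoid cell line, which is a B cell line immortalised with Epstein-Barr virus, grown in RPMI medium. The 4 groups were untreated control cells, cells exposed for 24 h to 5 µM hexavalent chromium (Cr6), and cells labelled as 3 days and as 7 days post treatment with that exposure. Each group had 2 libraries, described as biological replicates, and all came from a single line. The only untreated cells were the control group, so at the later times chromium and time in culture cannot be told apart. Hexavalent chromium enters cells as chromate and is reduced inside them to species that damage DNA.

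Counts assigned to genes ran from 9478459 to 11110830 per library. The share of reads under no feature was 36.5% and 39.4% in replicate 1 of the 7 and 3 day groups and 44.4% to 51.5% in the other 6 libraries. Those 2 libraries stood apart from the rest, and results that rest on them are given with and without them. All 8 B cell markers reached 10 CPM (gene counts scaled to a common library total) in every library, with sums of 1903 and 2360 CPM in the controls, 2517 and 1943 at 24 h, 1403 and 1708 at 3 days, and 1490 and 1652 at 7 days. The 6 T and NK cell markers summed to at most 1.34 CPM, and 3 of them were at 0 in every library. Sums reached at most 5.24 CPM for 5 myeloid markers and 6.85 CPM for 5 stromal or epithelial markers.

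The start regions of the genes are shown because a short ATF4 core, spelled TGATGNAA, was found mostly in cytosolic genes. RefSeq windows of 300 bases (250 before and 50 after an annotated start, GRCh38.p14) were found for 30 of the 36 genes, and none for DARS, LARS, VARS, YARS, AARS2 and VARS2. Searched on both strands, the core was in a window of 7 of 16 cytosolic genes (7 of their 21 windows) and of 1 of 14 mitochondrial genes (1 of 18 windows). It was in 3.62% of all 35116 RefSeq windows. The 30-base stretch around each match is printed with the core in capitals, turned so that the core reads as spelled, with its strand on GRCh38.p14.
AARS (chr16:70289675-70289704, plus strand): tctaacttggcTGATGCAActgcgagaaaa
CARS (chr11:3057407-3057436, plus strand): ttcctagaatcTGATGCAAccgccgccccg
GARS (chr7:30594834-30594863, minus strand): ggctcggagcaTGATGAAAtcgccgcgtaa
IARS (chr9:92293692-92293721, plus strand): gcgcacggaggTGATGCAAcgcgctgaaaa
MARS (chr12:57488053-57488082, minus strand): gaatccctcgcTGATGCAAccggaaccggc
NARS (chr18:57621804-57621833, minus strand): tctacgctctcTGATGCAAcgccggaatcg
TARS (chr5:33440956-33440985, minus strand): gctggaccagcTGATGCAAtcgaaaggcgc
YARS2 (chr12:32756076-32756105, minus strand): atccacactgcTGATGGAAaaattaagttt
In CARS, GARS, IARS, MARS, NARS and TARS the middle of the core lay between -30 and 17 bases from an annotated start, counted in the direction of the gene. In AARS it lay at -184 and in YARS2 at -194. The matched letters are a description of the windows and do not show that ATF4 bound there.

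WARS has 2 RefSeq windows, and the 250 bases before its downstream start carried both motifs of interferon signalling that were searched. These were the gamma activated site (GAS), spelled TTCNNNGAA, found in 7.66% of all windows, and the interferon stimulated response element (ISRE), 2 copies of GAAA with 2 bases between them, found in 3.57%. Both are in capitals below, on the minus strand of chr14:100375348-100375597 (GRCh38.p14).
WARS: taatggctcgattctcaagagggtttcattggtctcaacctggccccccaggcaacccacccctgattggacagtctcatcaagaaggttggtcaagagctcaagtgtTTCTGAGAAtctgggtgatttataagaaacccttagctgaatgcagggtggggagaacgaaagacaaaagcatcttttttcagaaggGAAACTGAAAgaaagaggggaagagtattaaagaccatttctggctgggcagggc
GAS matches were also in windows of CARS, TARS, PARS2 and WARS2, and an ISRE match in a window of EARS2. WARS was the only gene of the 30 with a window in this search that had both motifs. In a window of TARS the GAS match overlapped an ETS core, the only overlap between matches of different motifs in these windows.

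HARS and HARS2, the cytosolic and mitochondrial histidine enzymes, lie head to head, and the 84 bases between their annotated starts are printed on the plus strand of chr5:140691371-140691454 (GRCh38.p14). These are RefSeq starts, and in GENCODE v29 exons of the 2 genes overlap on opposite strands. The capitals mark 2 ETS cores, spelled CCGGAAG and read on both strands, a motif in windows of 9 of 16 cytosolic and 7 of 14 mitochondrial genes and in 10.3% of all windows.
HARS and HARS2: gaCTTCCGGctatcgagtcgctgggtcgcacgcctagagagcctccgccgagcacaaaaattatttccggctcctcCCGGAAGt
Of the other motifs searched, the E-box CACGTG was in windows of IARS, CARS2, EARS2 and MARS2 (7.26% of all windows). The NRF1 motif, GCGCA followed directly by TGCGC, was in a window of MARS2 (1.24% of all windows).

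In untreated cells the cytosolic genes were mostly expressed above the mitochondrial genes, and WARS stood above all others. Levels of different genes were compared as CPM per kilobase of coding sequence, with coding lengths from GENCODE v29. The median over genes was 68.9 per kilobase for the 20 cytosolic genes, which ran from 12.4 (FARSA) to 549 (WARS). It was 15.4 for the 16 mitochondrial genes, which ran from 2.88 (SARS2) to 69.1 (IARS2). The ranges of the classes overlapped: both controls of IARS2, RARS2 and HARS2 lay above both controls of MARS, VARS and FARSA. By control mean they also lay above SARS, LARS, HARS and CARS, though the controls of HARS2 overlapped those of each.

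**Figure D1:**
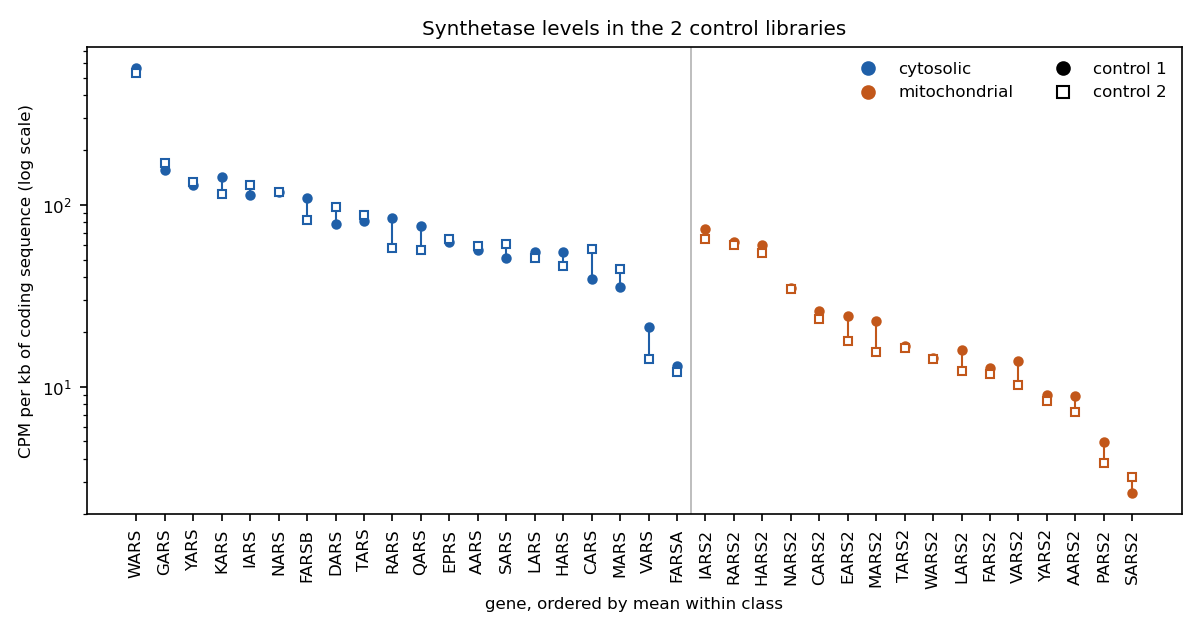
Level of each synthetase gene in the 2 control libraries, as CPM per kilobase of coding sequence on a log axis, with cytosolic genes in blue and mitochondrial genes in orange, ordered by mean within class. The filled circle is control 1 and the open square control 2; WARS is highest at 565 and 533, and SARS2 is lowest at 2.60 and 3.16.

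WARS was at 565 and 533 CPM per kilobase in the 2 controls. GARS, the glycine enzyme and second in the order, was at 156 and 169 CPM per kilobase. No control library of GARS came near the WARS level, whereas YARS, KARS, IARS and NARS followed GARS at means of 131, 129, 121 and 117 CPM per kilobase. Of the 35 neighbouring pairs in the order of the 36 genes, 11 had control libraries that did not overlap. Among mitochondrial genes the highest were IARS2, the isoleucine enzyme, at 73.5 and 64.8 CPM per kilobase, and RARS2, the arginine enzyme, at 62.7 and 60.5. Those values show that IARS2 lay above RARS2 in both controls, by a small margin.

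The alpha and beta subunits of the cytosolic phenylalanine enzyme, FARSA and FARSB, form a tetramer with equal numbers of each, yet their counts were unequal in every library. FARSB was 6.89 to 10.7 times as high as FARSA per kilobase of coding sequence over the 8 libraries. FARSA was at 19.6 and 18.2 CPM in the controls and FARSB at 193 and 146 CPM. The tables were made with a counting setting for strand that is not given in the sources used here, and FARSA overlaps an antisense gene, FARSA-AS1, in GENCODE v29.

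Comparing the enzymes for the same amino acid in the 2 compartments, the cytosolic gene was usually the higher. There were 17 such pairs over 16 amino acids, since EPRS, which charges both glutamate and proline, pairs with EARS2 and with PARS2, and FARSA and FARSB both pair with FARS2. Per kilobase of coding sequence, the cytosolic gene was higher in all 8 libraries in 14 pairs and lower in all 8 in 1, HARS over HARS2, at 0.704 to 0.979. HARS and HARS2 share exon sequence on opposite strands, and reads of the overlap cannot be assigned without the strand setting. RARS over RARS2 (0.953 to 1.4) and FARSA over FARS2 (0.726 to 1.99) went both ways. The widest gap in the controls was WARS over WARS2, at 38.5-fold, followed by SARS over SARS2, at 19.4-fold. SARS2 had only 19 to 51 counts per library and shares exons with MRPS12 on the opposite strand and AC011455.2 on the same strand, so its level is uncertain. Its values were 4.04 and 4.91 CPM in the controls, 5.03 and 4.46 at 24 h, 3.39 and 4.55 at 3 days, and 2.10 and 4.62 at 7 days.

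At 24 h of exposure no synthetase gene passed the threshold, which throughout is an adjusted p under 0.05 (edgeR's quasi-likelihood test with Benjamini-Hochberg adjustment over the genes tested). The background was the same, with 0% of the 12536 genes called; 0.175% of them had an unadjusted p under 0.05 and 0 of the 36 synthetases did. Fold changes were small and mostly below 0: 31 of 36 genes had a negative log2 fold change, 17 of 20 cytosolic and 14 of 16 mitochondrial, against an even split over all genes tested (50% positive). The median log2 fold change was -0.09 in each class and 0.00 over all genes. This lean rested partly on 2 libraries, since 22 of 36 were negative without replicate 1 of the 24 h group, and 22 without replicate 1 of the controls.

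By library, the median over the 36 genes of log2 CPM minus the control mean was -0.18 and -0.03 at 24 h. In the first of those libraries 8 of 36 genes lay above the control mean, and in the second 16. The controls themselves stood at 0.05 and -0.05, with 24 and 12 of 36 genes above their mean. The lower values at 24 h were mainly those of replicate 1, which also had the largest share of reads under no feature (51.5%); the part of that share in the result was not tested.

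Both 24 h libraries lay below both controls for 7 genes (FARSA, NARS, TARS, YARS, HARS2, NARS2 and TARS2), where 12.5% of all genes did so, and above both for none, where 11.4% did. FARSA was at 19.6 and 18.2 CPM in the controls and 14.1 and 15.0 CPM at 24 h (log2 fold change -0.38 ± 0.23 SE, adjusted p = 1). TARS2, the mitochondrial threonine enzyme, was at 36.3 and 35.3 CPM and then 25.8 and 33.3 CPM (-0.28 ± 0.23 SE, adjusted p = 1). In both genes the groups did not overlap, but TARS2 at 24 h varied more between its libraries than its nearer library lay from the controls. Later, FARSA was at 19.9 and 17.0 CPM at 3 days and 17.6 and 15.2 CPM at 7 days. TARS2 was at 42.6 and 33.0 CPM at 3 days and 38.7 and 38.9 CPM at 7 days, when both of its libraries were above the controls.

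HARS, the cytosolic histidine enzyme, was at 83.5 and 70.6 CPM in the controls and 49.7 and 73.7 CPM at 24 h (log2 fold change -0.32 ± 0.32 SE, adjusted p = 1). FARSB was at 193 and 146 CPM and then 117 and 170 CPM (-0.24 ± 0.25 SE, adjusted p = 1). In HARS and FARSB only replicate 1 of the 24 h group was below both controls, and the groups overlapped. Without that library the log2 fold change of FARSB was 0.01. HARS was at 100 and 62.8 CPM at 3 days and 94.2 and 63.9 CPM at 7 days, and FARSB at 160 and 154 and then 164 and 188 CPM. Both genes overlapped the controls at both later times. HARS2, which starts beside HARS, was at 91.8 and 82.6 CPM in the controls, 70.2 and 81.6 at 24 h, 102 and 82.7 at 3 days, and 104 and 65.7 at 7 days. In the later groups replicate 1 was the higher in both HARS and HARS2. Exons of the 2 genes overlap on opposite strands, and the part of shared reads in these values was not tested.

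At 3 and 7 days post treatment no synthetase passed the threshold either, again beside 0% of all genes in each of these comparisons, and the lowest adjusted p among the 36 was 0.843 at 3 days and 0.851 at 7 days. At an unadjusted p under 0.05 the count was 0 of 36 at both times, against 5.29% and 4.94% of all genes. Both 3 day libraries lay above both controls for 3 genes (EPRS, WARS2 and YARS2; 16.7% of all genes) and below for 3 (NARS, WARS and RARS2; 17.2%). At 7 days 7 lay above (DARS, EPRS, GARS, SARS, YARS, TARS2 and WARS2; 16.6%) and 2 below (FARSA and WARS; 17.9%). EPRS and WARS2 were thus above both controls at both times and WARS below at both; the 3 and 7 day comparisons share their control libraries.

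The classes differed little from each other. The median log2 fold change of cytosolic and mitochondrial genes was 0.05 and -0.07 at 3 days and 0.05 and -0.04 at 7 days, against 0.01 and 0.00 over all genes tested. The difference of the class medians was 0.12 at 3 days and 0.08 at 7 days, within the spread of this quantity between replicates (SD 0.15). It was -0.05 at 3 days without replicate 1 of that group, so its sign depended on that library.

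Summed over genes, cytosolic counts were 4147 and 4081 CPM in the controls, 3825 and 4005 at 24 h, 4413 and 3778 at 3 days, and 4616 and 4152 at 7 days. Mitochondrial sums were 803 and 705 CPM in the controls, 642 and 776 at 24 h, 702 and 772 at 3 days, and 730 and 791 at 7 days. The ratio of the sums was 5.16 and 5.79 in the controls and 5.96 and 5.16 at 24 h. It was 6.29 and 4.89 at 3 days and 6.32 and 5.25 at 7 days. The highest ratios belonged to replicate 1 of the later groups and the lowest to replicate 2 at 3 days, so the groups overlapped throughout.

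**Figure D2:**
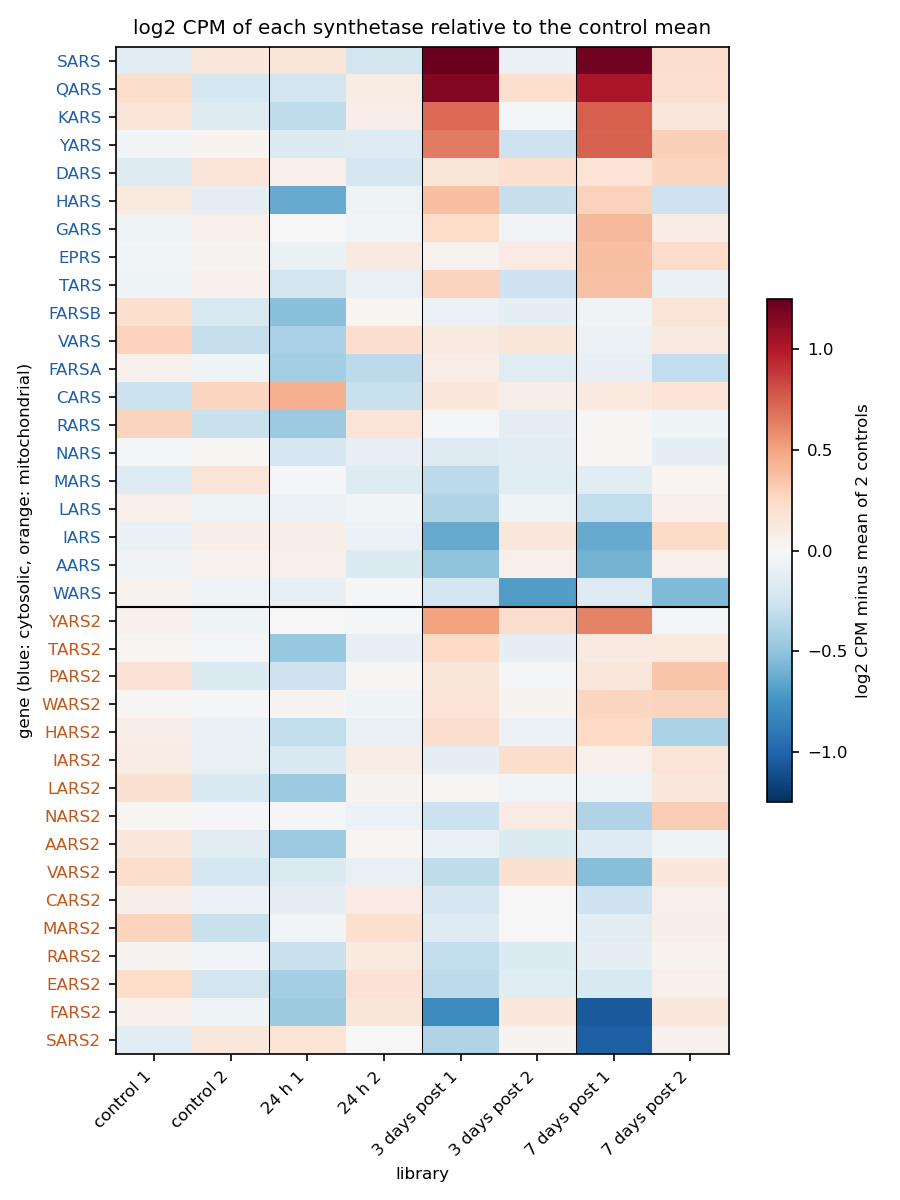
Log2 CPM of each of the 36 synthetase genes in each of 8 libraries, relative to the mean of the 2 controls (red higher, blue lower), with cytosolic genes above the line and mitochondrial genes below it, each ordered by the log2 fold change of later against earlier groups. The strongest colours are in replicate 1 of the later groups, where SARS reaches 1.23 and FARS2 is at -1.05.

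The 3 and 7 day groups were close to each other. No synthetase passed the threshold between them (lowest adjusted p 1, 0% of all genes called, 0 of 36 at an unadjusted p under 0.05), and the median log2 fold change was 0.08 for cytosolic and 0.04 for mitochondrial genes. A single test for any difference among the 4 groups also called none of the 36, where 0% of all genes were called, the lowest adjusted p was 1, and 0 of 36 had an unadjusted p under 0.05. The 4 later libraries were therefore also compared with the 4 earlier ones (control and 24 h), a comparison chosen with earlier results of these data known.

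Later against earlier, the background was 0.00798% of genes called (1 gene), and 0 of the 36 synthetases were called, with a lowest adjusted p of 0.313. An unadjusted p under 0.05 was found for QARS and SARS, which is 5.56% of the 36, against 14.2% of all genes tested. Of the cytosolic genes 14 of 20 had a positive log2 fold change (median 0.09), and of the mitochondrial genes 7 of 16 (median -0.02), beside 50.5% positive and a median of 0.01 over all genes. No gene had all 4 later libraries above all 4 earlier ones (5.93% of all genes did), and only WARS had all 4 below (7.43% did). Over all 36 genes the log2 fold changes ran from -0.37 (WARS) to 0.77 (SARS) among cytosolic and from -0.33 (SARS2) to 0.36 (YARS2) among mitochondrial genes. DESeq2 called 266 genes and limma-voom 1 in this comparison, and neither called a synthetase.

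QARS, the glutamine enzyme of the multisynthetase complex, was at 178 and 132 CPM in the controls and 129 and 162 CPM at 24 h. It was at 343 and 176 CPM at 3 days and 311 and 177 CPM at 7 days, with a log2 fold change of later against earlier of 0.74 ± 0.27 SE (adjusted p = 0.313). Replicate 1 of each later group was higher than every other library, while both replicate 2 libraries lay just below control 1. Without both replicate 1 libraries the log2 fold change was 0.24 (adjusted p = 0.692).

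SARS, the serine enzyme, was at 78.5 and 93.6 CPM in the controls and 94.9 and 73.0 CPM at 24 h. It was at 202 and 81.0 CPM at 3 days and 198 and 99.7 CPM at 7 days (log2 fold change 0.77 ± 0.33 SE, adjusted p = 0.345). The same libraries as in QARS were the high ones, and replicate 2 at 3 days lay inside the range of the earlier libraries. Without both replicate 1 libraries the log2 fold change was 0.08 (adjusted p = 0.9), and at 3 days alone it was -0.08 without replicate 1 of that group.

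KARS, the lysine enzyme, was at 255 and 205 CPM in the controls, 184 and 242 at 24 h, 375 and 226 at 3 days, and 385 and 253 at 7 days (log2 fold change 0.48 ± 0.23 SE, adjusted p = 0.37). YARS, the tyrosine enzyme, was at 202 and 211 CPM, then 184 and 185, then 324 and 172, then 345 and 255 (0.48 ± 0.22 SE, adjusted p = 0.361). At 7 days both YARS libraries were above both controls, as were both SARS libraries, whereas replicate 2 of QARS and KARS lay within the range of the controls. Without both replicate 1 libraries the values for later against earlier were 0.11 for KARS and 0.10 for YARS. YARS overlaps S100PBP on the opposite strand.

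**Figure D3:**
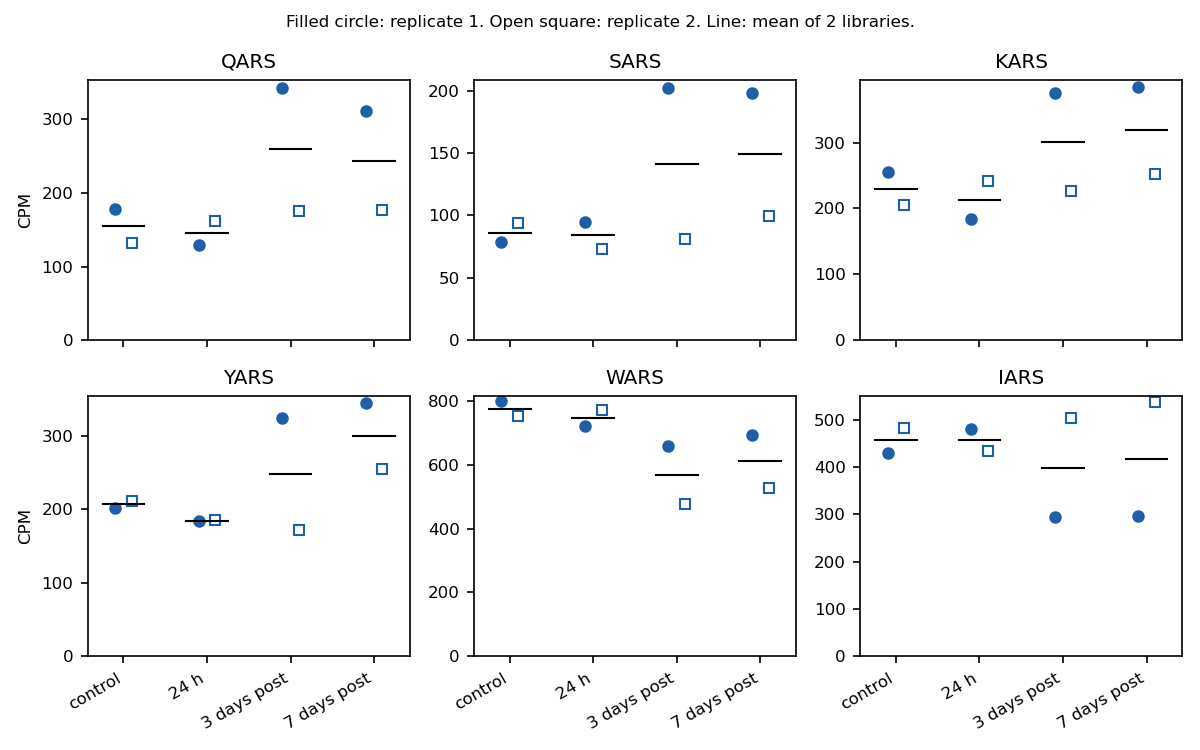
CPM of 6 cytosolic synthetase genes in each library (filled circle replicate 1, open square replicate 2, line the mean of 2 libraries), with each vertical axis starting at 0. QARS, SARS, KARS and YARS are highest in replicate 1 of the later groups, IARS is lowest there, and WARS is lower in all 4 later libraries than in any earlier one.

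EPRS, the complex member that charges glutamate and proline, lay above both controls at both later times with little difference between replicates. It was at 284 and 295 CPM in the controls and 274 and 313 CPM at 24 h. It was at 298 and 310 CPM at 3 days and 375 and 339 CPM at 7 days, where the log2 fold change from control was 0.30 ± 0.20 SE (adjusted p = 0.851). GARS was at 346 and 375 CPM in the controls, 361 and 352 at 24 h, 422 and 353 at 3 days, and 479 and 382 at 7 days. Both GARS libraries at 7 days were above the controls, one by a small margin.

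YARS2, the mitochondrial tyrosine enzyme, was at 12.8 and 12 CPM in the controls and 12.4 and 12.2 CPM at 24 h. It was at 17.6 and 14.5 CPM at 3 days and 19.2 and 12.3 CPM at 7 days, with a log2 fold change of 0.37 ± 0.29 SE at 3 days (adjusted p = 0.843). It lay above the controls in both libraries at 3 days and in replicate 1 only at 7 days. IARS2, the highest mitochondrial gene, was at 223 and 197 CPM in the controls, 184 and 223 at 24 h, 193 and 243 at 3 days, and 218 and 234 at 7 days. Every exposed group of IARS2 overlapped the controls. RARS2 was at 109 and 105 CPM, then 88.2 and 116, then 86.1 and 94.8, then 98.6 and 110, with only the 3 day group below both controls.

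WARS was the most abundant synthetase and the only one that separated all later from all earlier libraries. It was at 799 and 753 CPM in the controls and 722 and 771 CPM at 24 h. It was at 658 and 477 CPM at 3 days and 694 and 528 CPM at 7 days. Every later library was below every earlier one, with a log2 fold change of -0.37 ± 0.18 SE and an adjusted p of 0.372, so the difference did not pass the test. In contrast to QARS and SARS, the larger difference was in replicate 2: without both replicate 1 libraries it was -0.60 ± 0.14 SE (adjusted p = 0.228).

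The share of all cytosolic synthetase counts taken by WARS was 19.3% and 18.4% in the controls and 18.9% and 19.2% at 24 h. It was 14.9% and 12.6% at 3 days and 15.0% and 12.7% at 7 days, again with no overlap between earlier and later libraries. WARS2, the mitochondrial tryptophan enzyme, was at 15.5 and 15.3 CPM in the controls, 15.8 and 14.9 at 24 h, 17.4 and 15.7 at 3 days, and 18.7 and 18.8 at 7 days. The log2 ratio of WARS to WARS2 was 5.50 to 5.68 in the earlier libraries and 4.80 to 5.23 in the later ones. It was the only one of the 17 pairs whose ratio did not overlap between the 4 earlier and the 4 later libraries. WARS overlaps WDR25 on the opposite strand, and reads of the overlap cannot be assigned without the strand setting.

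Other genes known to respond to interferon gamma also had lower values in the later libraries, and none passed the test in edgeR. Of 15 listed, 14 were tested, and 12 of the 14 had a negative log2 fold change of later against earlier (median -0.63), and in 8 all 4 later libraries were below all 4 earlier ones, where 7.43% of all genes tested did so. DESeq2 called 3 of the list later against earlier (GBP1, GBP4 and GBP5), beside 266 of all 23710 genes in the tables (1.12%). Those 23710 include genes without counts, so 1.12% is lower than the share over expressed genes. Without the filter on counts edgeR called 4 (the same 3 and NLRC5), and its share over all genes is not given here. GBP4, a guanylate binding protein, was at 111, 109, 118 and 99.6 CPM in the earlier libraries and 59.5, 42.8, 56.2 and 41.0 CPM in the later ones (-1.13 ± 0.18 SE, adjusted p = 0.112 in edgeR and 0.000115 in DESeq2). GBP1 and GBP5, of the same family, gave -0.74 (adjusted p = 0.139) and -0.87 (adjusted p = 0.139), and TAP2, a subunit of the antigen peptide transporter, -0.50 (adjusted p = 0.233). In each of these 4 genes the groups did not overlap.

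The separation was not shared by every gene on that list. TAP1, the partner subunit of TAP2, was at 209 and 208 CPM in the controls and at 303, 172, 283 and 176 CPM in the later libraries, and PSMB8, a subunit of the immunoproteasome, had a log2 fold change of 0.25 (adjusted p = 0.475). Markers of the cell type also had lower values: of 8 B cell markers 6 had a negative log2 fold change (median -0.34), with CR2 at -1.07 (adjusted p = 0.161), CD40 at -0.90 (adjusted p = 0.228), both called by DESeq2, and MS4A1 at -0.57 (adjusted p = 0.287), while CD79A was at 0.44. In bulk RNA, fewer cells of a type and less RNA per cell cannot be told apart, and the part of these markers in the WARS values was not tested.

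**Figure D4:**
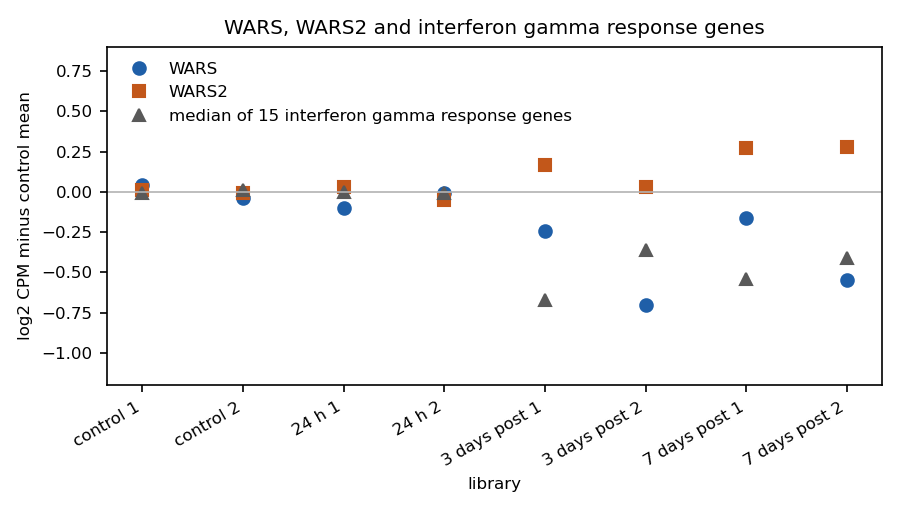
Log2 CPM minus the control mean in each library for WARS (circles), WARS2 (squares) and the median of interferon gamma response genes (triangles). The median is over the 14 genes tested of the 15 listed, and the key gives the number listed. The triangles sit between -0.01 and 0.01 in the 4 earlier libraries and between -0.67 and -0.36 in the 4 later ones, and WARS is below 0 in all 4 later libraries.

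The spread between the 2 libraries of each later group differed from gene to gene. Averaged over 3 and 7 days, replicate 1 exceeded replicate 2 by over 0.5 on the log2 scale for 5 genes, all cytosolic: SARS (1.15), QARS (0.89), KARS (0.67), YARS (0.67) and HARS (0.61). It was lower by over 0.5 for 6 genes: FARS2 (-1.06), IARS (-0.82), SARS2 (-0.74), AARS (-0.60), VARS2 (-0.58) and NARS2 (-0.54). These 11 genes are 30.6% of the 36, against 46.8% of all genes tested that differed as much. The class medians of this replicate difference were 0.07 for cytosolic and -0.17 for mitochondrial genes, against -0.01 for all genes.

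IARS, the isoleucine enzyme of the complex, was at 430 and 483 CPM in the controls and 480 and 434 CPM at 24 h. It was at 295 and 503 CPM at 3 days and 296 and 538 CPM at 7 days, so replicate 1 lay below and replicate 2 above every earlier library at both times. FARS2, the single-chain mitochondrial phenylalanine enzyme, was at 17.0 and 15.9 CPM in the controls, 12.1 and 18.3 at 24 h, 9.35 and 18.0 at 3 days, and 7.84 and 18.1 at 7 days. In FARS2 replicate 1 of the later groups was lowest, and replicate 1 at 24 h was also below both controls, on 71 to 202 counts per library. IARS and FARS2 were chosen for mention after their values were seen.

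Transcript length went with the replicate difference among cytosolic genes. Across the 20 cytosolic genes, Spearman's rho between transcript length and the difference was -0.51, across the 16 mitochondrial genes it was 0.14, and across the 10958 tested genes with a gene model it was -0.28. The corresponding values for GC content were 0.27, -0.34 and 0.19. These are descriptions across genes of the same libraries, which share depth and preparation, and the part of length in the values of single genes was not tested.

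Over the 8 libraries the synthetases had a narrower range than the median gene. The difference between the highest and lowest library had a median of 0.65 on the log2 scale for the 36 genes, 0.71 for the cytosolic and 0.64 for the mitochondrial class, against 0.95 for all genes tested. It exceeded 1 in 6 of 36 (16.7%), against 46.8% of all genes. NARS, the asparagine enzyme, was the steadiest, with a range of 0.22 and values of 192 and 193 CPM in the controls, 167 and 180 at 24 h, 173 and 175 at 3 days, and 195 and 178 at 7 days. NARS was chosen for mention after its values were seen. The comparison with all genes was not adjusted for level.

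**Figure D5:**
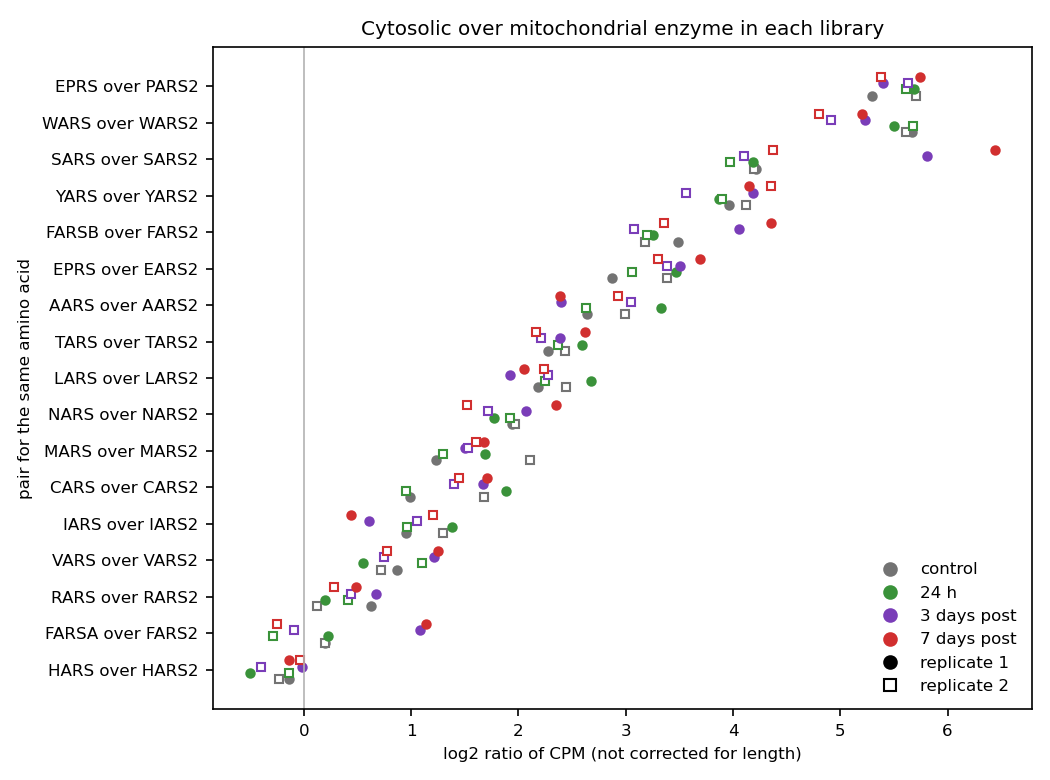
Log2 ratio of CPM of the cytosolic over the mitochondrial gene for the same amino acid in each library (colour the group, filled circle replicate 1, open square replicate 2), not corrected for length, ordered by mean. The line at 0 marks equal CPM; WARS over WARS2 is the pair whose later points all lie to the left of its earlier points, and SARS over SARS2 reaches 6.44 in replicate 1 at 7 days.

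Within the cytosolic class, the 8 complex members and the 12 others did not separate. Their median log2 fold changes of later against earlier were both 0.09, and at 24 h they were -0.08 and -0.12. The scaffold genes of the complex (AIMP1, AIMP2 and EEF1E1) summed to 74.3 to 88.6 CPM over the 8 libraries, and 0 of 3 were called in any comparison. In edgeR the same held for every other companion list, with 0 genes called higher and 0 lower. AIMP1, the scaffold with the most counts, was at 43.5 and 42.6 CPM in the controls and 55.4, 47.4, 54.0 and 40.4 CPM in the later libraries (log2 fold change 0.18 ± 0.16 SE, adjusted p = 0.576).

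The 29 listed genes of the GCN2 and ATF4 amino acid response were all tested, and edgeR called none later against earlier; 21 had a positive log2 fold change (median 0.08). In 4 of them all later libraries were above all earlier ones, as in 5.93% of all genes tested: SHMT2 and PHGDH, enzymes of serine and glycine synthesis, SLC1A5, a glutamine transporter, and DDIT4, a stress-induced inhibitor of mTORC1. In 1, the transcription factor ATF5, all later libraries were below all earlier ones, as in 7.43% of all genes (log2 fold change -0.53, adjusted p = 0.299). PHGDH was at 15.1, 30.6, 25 and 12.7 CPM in the earlier libraries and 47.4, 34.9, 40.4 and 41.0 CPM in the later ones (0.98 ± 0.29 SE, adjusted p = 0.269). SHMT2 gave 0.79 ± 0.21 SE (adjusted p = 0.233). DESeq2 called 2 of the list (DDIT4 and SHMT2), beside 1.12% of all 23710 genes in the tables, which include genes without counts. Without the filter on counts edgeR called 5 (ATF3, DDIT4, PHGDH, SESN2 and SHMT2), and its share over all genes is not given here. ATF3 was at 82.6 and 74.1 CPM in replicate 1 of the later groups, 12.8 and 15.8 in replicate 2, and 14.5 to 26.4 earlier. SESN2 was at 180 and 147 CPM in replicate 1 of the later groups, 26.1 and 24.6 in replicate 2, and 31.9 to 38 earlier. ASNS, the asparagine synthetase often read as the leading ATF4 target, was at 75.5 and 108 CPM in the controls and 93.6, 132, 94.3 and 123 CPM in the later libraries, with overlapping groups. ATF3, SESN2, ATF5 and ASNS here, and TAP1 and PSMB8 above, were chosen for mention after their values were seen.

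The synthetase genes with an ATF4 core in a window are described beside that list, with no test of a difference. Their median log2 fold change of later against earlier was -0.02 over 7 cytosolic genes, and it was 0.18 over the 9 cytosolic genes with a window and no core. By library, all 7 lay above the control mean in control 2. That none did so in control 1 follows, since the mean is that of these 2 libraries. At 24 h 4 of 7 lay above it in replicate 1 and none in replicate 2. Of all 12536 genes tested, 6085 lay above it in control 2, and 6195 and 6293 in replicates 1 and 2 at 24 h. In control 1, control 2 and replicates 1 and 2 at 24 h, ASNS was at 75.5, 108, 152 and 86.3 CPM. In the same order, the B cell markers had medians of -0.18, 0.18, 0.27 and -0.25 on the log2 scale against the control mean. Over all genes tested, replicate differences of the control and 24 h groups correlated at -0.599. MARS, one of the 7, overlaps the ATF4 pathway gene DDIT3 on the opposite strand.

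Genes that work beside the mitochondrial enzymes were also not called. The transamidation subunits that make mitochondrial glutaminyl-tRNA from the EARS2 product (GATC, QRSL1 and PET112) and the formylase MTFMT had a median log2 fold change of 0.13 later against earlier, with 3 of 4 positive. Of 11 genes that modify or process mitochondrial transfer RNA, 8 were positive (median 0.18), and MTO1, which modifies the wobble uridine, was at 64.7, 57.7, 56.1 and 68.2 CPM in the earlier and 99.2, 75.5, 89.0 and 70.2 CPM in the later libraries (0.43 ± 0.17 SE, adjusted p = 0.324). All 4 later libraries of MTO1 were above all earlier ones. Of 10 mitochondrial translation factors 6 were positive (median 0.15); TUFM, the elongation factor that delivers charged transfer RNA, was at 158, 88.9, 155 and 98.1 CPM in the later libraries and 69.0 to 99.5 CPM in the earlier ones, so its highest values were in replicate 1.

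Among genes that edit, deacylate or repair transfer RNA, 6 of 8 were tested and 3 were positive (median 0.01). TRNT1, which adds the CCA end that synthetases act on, was at 85.4 and 95.4 CPM in the controls and 54.7, 77.4, 65.4 and 85.0 CPM in the later libraries (-0.33 ± 0.17 SE, adjusted p = 0.394). Of 5 other synthetase-related genes outside the 36, 1 was positive (median -0.09). SEPSECS, which completes selenocysteine on its transfer RNA, was at 29.1 and 26.9 CPM in replicate 1 of the later groups and 37.4 to 51.3 CPM in the other libraries.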

How the data were processed

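The deposited tables held whole-number read counts per gene symbol, a table for each library. R 3.2.3 with DESeq2 1.8.1, SAMtools, Bowtie2 and Trim Galore appear in the submitters' processing notes, as do the builds GRCh37 and hg19. How reads were counted (program, strand, annotation) is not given in the sources used here. Reads of overlapping or antisense genes therefore cannot be told apart. RefSeq names 15 pseudogenes of 11 members, none of them among the counted symbols, so reads shared with such copies are uncertain. The 5 entries that name no gene took 42.6% to 57.5% of reads and were left out.

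From these counts, genes were filtered with filterByExpr (minimum count 10, minimum total 15), scaled with TMM, and tested with edgeR 4.0.16 (quasi-likelihood; R 4.3.3) in a fit of the 8 libraries, each group having its own coefficient, with Benjamini-Hochberg adjustment over 12536 genes at 0.05. CPM uses TMM library sizes; log2 CPM has a prior count of 2. DESeq2 1.42.0, limma 3.58.1 (voom), other scalings and filters, a replicate block and left-out libraries were alternatives. The script was tested on simulated data. With 2 libraries a group, a p-value measures only the spread between these samples.

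Replicate numbers were not taken as pairs, since replicate differences correlated from -0.599 to 0.811 between groups. Coding lengths were planned from RefSeq proteins but taken from GENCODE v29. Promoter windows are from RefSeq (GRCh38.p14), while the counts use GRCh37, so only names link them. Members and lists were chosen with earlier results of these data known. Values in every library are given for the 4 genes of lowest p in each of 4 comparisons, the 2 highest genes of each class per kilobase, and partners on which a result turns; from each companion list up to 4 genes of lowest p could be named, and exceptions are marked.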

Additional observations from a re-analysis of the deposited data

Results flagged for a closer look

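YARS and TARS2 lay on opposite sides of the controls at 24 h and at 7 days. YARS had a log2 fold change of -0.16 at 24 h and 0.54 at 7 days, and both of its libraries were below both controls at 24 h and above both at 7 days. TARS2 did the same, at -0.28 and 0.12. The difference between the 2 times was not tested, both comparisons share the control libraries, and neither gene passed the threshold at either time (edgeR, adjusted p = 1 at 24 h for both). The same pattern was seen in 3.51% of all genes tested (440 of 12536). No group was larger than 2 libraries, so single libraries could not be tested as outliers.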

How the results depend on the processing

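Of 284 alternative values for single genes, 3 changed sign. Of 94 for the difference of class medians 7 did, and of 27 for the change in the ratio of the sums 11 did, all of them when libraries were left out. The 94 include the 24 h values, which could not count as changed, since the main value rounded to -0.00. That difference ran from -0.09 to 0.10 when a library was left out. It was 0.02 with limma-voom and with the replicate block. No synthetase was called under any alternative except the crossed block below. The others covered 2 scalings, 2 filters, DESeq2, limma-voom, the replicate block and every left-out library. Their lowest adjusted p was 0.0618, for QARS later against earlier in edgeR without the filter on counts. In the main fit that value was 0.313. With the replicate block 0 of 36 were called in each comparison (lowest adjusted p 0.238, later against earlier), and 1 gene of all tested was called there, as without it. A block with crossed numbers, added after the negative correlation of the control and 24 h replicate differences (-0.599) was seen, called 2 synthetases (QARS and KARS) and 1101 genes (8.78% of those tested) later against earlier.

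The difference between the cytosolic and mitochondrial medians changed sign with single libraries. At 3 days it ran from -0.07 (without control replicate 1) to 0.23 when a library was left out, and it was -0.05 without both later replicate 1 libraries. Later against earlier it was -0.06 without both of those, and 7 against 3 days it ran from -0.15 to 0.14. The change in the log2 ratio of the sums, 0.02 at 3 days and 0.04 later against earlier, was -0.16 and -0.12 without both. For SARS at 3 days the log2 fold change ran from -0.08 to 1.23 when a library was left out and was -0.08 without both later replicate 1 libraries. FARSB at 24 h ran from -0.54 to 0.01. The cause was not tested.

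Counts limit SARS2 (19 to 51 per library), PARS2 (51 to 80) and FARS2 (71 to 202) most. With 2 libraries a group and a common biological coefficient of variation of 0.276, a p over the threshold does not show that a synthetase did not differ.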
